A study of Mus musculus with 2 samples.

Results

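The genes of the nuclear pore and of its transport receptors were described in mouse liver by their names: symbols that begin with Nup, Kpna, Kpnb, Ipo, Xpo or Tnpo followed by a number (or by t, for *Xpot*), with 20 or more read counts summed over the libraries. The name rule matched 44 symbols and 43 of them had enough counts, among 13027 genes that did in all. Of the 43 genes 21 code for nucleoporins and 22 for transport receptors. *Kpna7*, an importin alpha gene, had 0 counts in both libraries, which allows up to 3 counts in each. *Nup210l*, with 18 counts in the untreated and 4 in the TSA library, lay just above the minimum. PolyA RNA had been sequenced from the liver of FVB/N mice in 2 libraries, 1 per group. Both groups carried c-Myc delivered by hydrodynamic injection, in which a large volume pushed quickly into the tail vein brings DNA into hepatocytes. One group had no further treatment (untreated) and the other received TSA, an agent that the labels do not spell out. Its dose and timing, the age and number of the mice, any vehicle, and whether the tissue was tumour, surrounding liver or a mix are not stated by the labels.

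Transport between nucleus and cytoplasm runs through nuclear pores, large rings built of many copies of the nucleoporins. A Y-shaped complex forms the outer rings, an inner ring lies against the membrane of the pore, and nucleoporins rich in phenylalanine-glycine (FG) repeats fill the channel. Importins and exportins are carrier proteins that bind their cargo and pass the FG mesh, and the small GTPase Ran, which is loaded with GTP in the nucleus, tells them where to pick up and release it. Cells that grow and divide build new pores and carry ribosomal proteins in and ribosome precursors out. Many genes of this machinery are highly expressed in tumours, and MYC proteins can bind the sequence CACGTG, the E-box, in promoters.

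Ratios compare TSA with untreated in CPM, read counts relative to library size, after scaling by TMM, which takes most genes to be equal in both libraries. Ratios below 1 are inverted and written as fold lower, and parentheses hold the 95% interval of the counting error. To be called, a gene had to differ 2-fold or more and its interval had to leave out 1. With 1 library per group no test is possible, and nothing below measures the variation between animals. Over all genes 26.0% were called higher and 27.4% lower. With total counts as the scaling 16.0% were higher and 48.7% lower, since TMM moved each log2 ratio up by 0.85. Higher genes made up 48.6% of all calls with TMM against 24.7% with total counts. The log2 ratio of the median gene was -0.11 under the first scaling and -0.96 under the second.

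The nuclear transport genes were lower in the TSA library nearly throughout. All 43 had fewer raw counts there. With TMM 34 were called lower, none higher and 9 neither, against the 27.4% of all genes called lower. Among the 6178 genes with at least 1000 summed counts, a depth that 38 members reached, 27.9% were called lower. With total counts 41 members were called lower, against 48.7% of all genes, the exceptions being *Kpna1* and *Ipo8*. The median log2 ratio of the members was -1.64, or 3.12-fold lower, and 16.7% of all genes had a ratio that low or lower. Together the members took 0.921% of the counts of the untreated library and 0.170% of those of the TSA library. The 21 nucleoporin genes had a median of 5.20-fold lower, with 19 called. The 22 receptor genes had a median of 2.33-fold lower, with 15 called. Nucleoporins made up 30.6% (30.4 to 30.8) of the members' counts in the untreated library and 21.6% (21.1 to 22.1) in the TSA library, a comparison that no scaling between libraries affects.

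**Figure D1:**
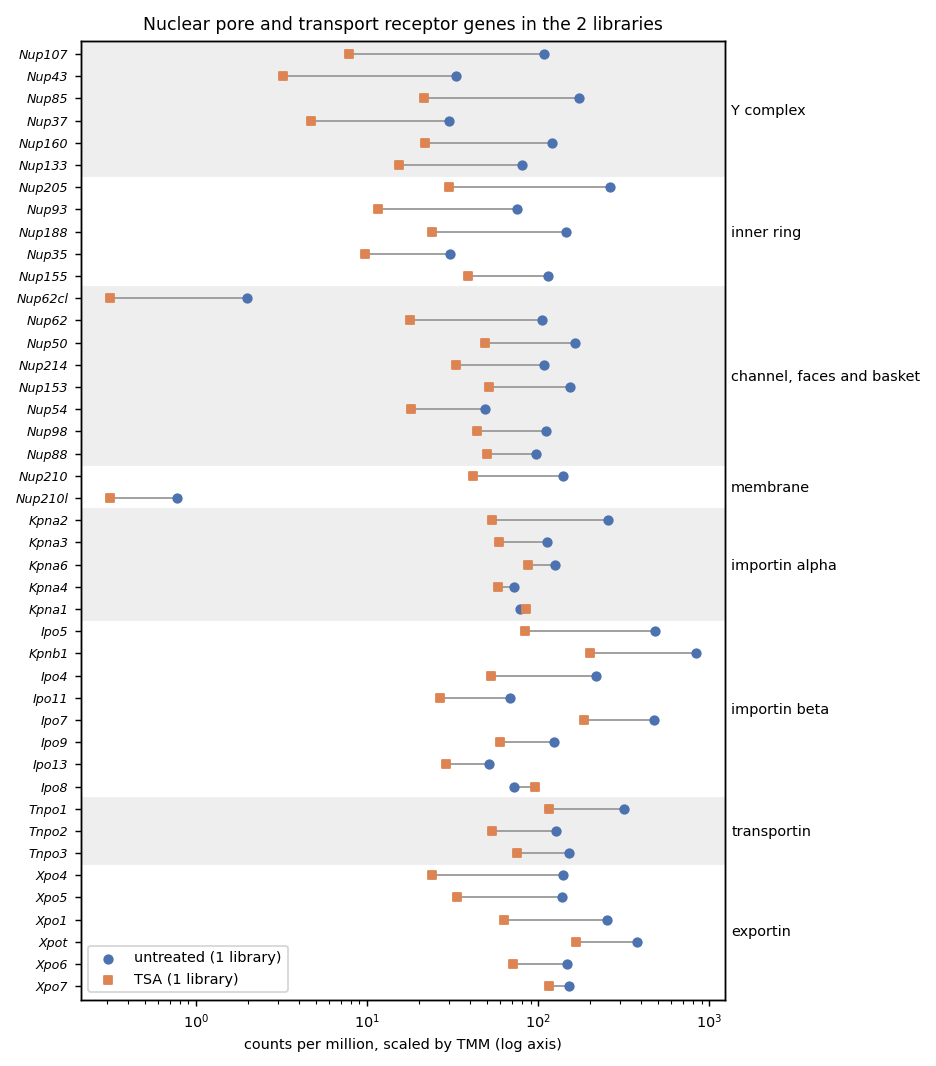
Level of each of the 43 genes in the untreated library (circles) and the TSA library (squares), in CPM scaled by TMM on a log axis, grouped by role. The TSA library lies lower for 41 genes, and *Kpna1* and *Ipo8* are the exceptions on this scale.

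Marker transcripts of several cell types differed between the libraries as well, and in bulk tissue fewer cells of a type and less RNA per cell cannot be told apart. Both libraries held the defining markers of liver: 8 of 8 hepatocyte markers were detected, and all 8 were called higher with TSA. They took 0.800% of counts untreated and 11.6% with TSA. Markers of dividing cells were called lower in 10 of 10 cases, from 0.228% to 0.00183% of counts, with *Top2a* and *Mki67* among them. Of 4 fetal liver or hepatoma markers 3 were lower, from 1.06% to 0.00751%. Endothelial markers were higher in 5 of 6 cases (0.0115% and 0.0350% of counts), macrophage markers in 5 of 6 (0.0335% and 0.0405%) and erythroid markers in 4 of 4 tested (0.00932% and 0.0261%). Of 6 stellate and fibroblast markers 4 were called higher and 1 lower (0.0393% and 0.0392%), biliary markers higher in 3 and lower in 2 of 5 (0.00660% and 0.00377%), and leukocyte markers higher in 2 of 3 tested (0.00230% and 0.00236%). With total counts 7 hepatocyte, 3 endothelial, 3 macrophage, 3 stellate and fibroblast, 2 biliary, 2 leukocyte and 4 erythroid markers were higher. On that scale 10 markers of dividing cells, 4 fetal liver or hepatoma, 1 macrophage, 2 stellate and fibroblast and 2 biliary markers were lower. The share of all genes called under TMM was 26.0% in the higher direction and 27.4% in the lower one. Under total counts these shares were 16.0% and 48.7%. The lower calls of macrophage, of stellate and fibroblast and of biliary markers under total counts stayed below that last share. No marker of these lists was at 0 in either library. The part of these differences in the results on nuclear transport was not tested.

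The Y complex, the scaffold of the outer rings, held the 2 genes with the largest differences, *Nup107* and *Nup43*. The 6 genes grouped here under this complex were all called lower, against 27.4% of all genes. Their differences ran from 5.20-fold to 13.8-fold, with a median of 7.13-fold. *Nup98*, whose transcript also codes for the Y complex subunit NUP96, is given with the channel genes. It was 2.54-fold lower and is not part of that range. *Nup107*, a core subunit of the stem of the Y, had 2492 counts untreated and 99 with TSA. It was 13.8-fold (11.3 to 17.0) lower, the largest difference among the 43 genes. *Nup43* and *Nup37*, for small propeller-shaped subunits, had 769 and 693 counts untreated against 41 and 60 with TSA. They were 10.3-fold (7.50 to 14.4) and 6.33-fold (4.86 to 8.38) lower. *Nup85*, for a subunit of a short arm of the Y, had 4004 and 273 counts and was 8.04-fold (7.11 to 9.12) lower. Per length it was the most abundant of the 6 in both libraries, at 99.2 and 6.84 FPKM. *Nup160* (2785 and 278 counts) and *Nup133* (1852 and 195 counts) were 5.49-fold and 5.20-fold lower, the smallest differences in this group.

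The Y complex has further subunits whose genes carry other names, and their ratios lay closer to 1. *Seh1l* had 2275 and 676 counts and was at 1.84-fold (1.69 to 2.01) below the untreated level. *Ahctf1*, for the subunit ELYS that starts pore assembly on chromatin after mitosis, had 6442 and 1932 counts and was at 1.83-fold (1.74 to 1.92) below. *Sec13*, whose product also coats vesicles that leave the endoplasmic reticulum, had 1562 and 962 counts, a ratio of 1.12 (1.04 to 1.22). None of the 3 was called with TMM. With total counts *Seh1l* and *Ahctf1* were called lower and the ratio of *Sec13* turned to 1.61-fold lower, not called. *Seh1l* and *Sec13* are named after their values were seen.

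The inner ring followed, with all 5 genes called lower, against 27.4% of all genes, and a median of 6.04-fold. *Nup205*, for one of the large scaffold proteins of this ring, had 6126 counts untreated and 381 with TSA and was 8.81-fold (7.94 to 9.80) lower. *Nup93*, for the linker that holds the inner ring together, had 1730 and 147 counts and was 6.45-fold (5.45 to 7.68) lower. *Nup188*, for the relative of NUP205, had 3361 and 305 counts and was 6.04-fold (5.37 to 6.81) lower. The membrane-contacting members differed less: *Nup35* (707 and 124 counts) was 3.12-fold (2.58 to 3.81) lower and *Nup155* (2625 and 493 counts) 2.92-fold (2.65 to 3.22) lower. The intervals of the first 3 genes did not overlap those of these 2.

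The nucleoporins of the channel, the faces and the basket spanned a wider range. *Nup62*, for the central FG nucleoporin of the channel, had 2428 and 227 counts and was 5.86-fold (5.11 to 6.74) lower. *Atf5* lies on the opposite strand over part of it, with 3309 and 3078 counts, and whether the counting used strand is not known here, so the 2 genes may share reads. *Nup54*, for a partner of NUP62 in the channel, had 1131 and 228 counts and was 2.72-fold (2.36 to 3.15) lower. *Nupl1*, the older symbol of the gene for the remaining partner NUP58, was named after its value was seen: it had 1107 and 327 counts and lay at 1.85-fold (1.64 to 2.10) below, not called. The channel partners therefore differed from one another beyond counting error.

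On the basket, the filaments that reach into the nucleus, *Nup153* (3530 and 658 counts) was 2.94-fold (2.70 to 3.20) lower and *Nup50* (3808 and 621 counts), whose product helps release cargo from importin alpha, was 3.36-fold (3.09 to 3.66) lower. *Tpr*, the gene for the main basket filament, had 6032 and 1329 counts and was 2.49-fold (2.34 to 2.64) lower. On the cytoplasmic side, *Nup214* (2514 and 417 counts) was 3.30-fold (2.98 to 3.67) lower. *Nup88*, for its binding partner, had 2251 and 640 counts and was at 1.93-fold (1.76 to 2.11) below, the nearest member outside the threshold. *Rabep1* shares exon bases with *Nup88* on the opposite strand and had 1522 and 1094 counts. *Ranbp2*, for the giant SUMO ligase of the cytoplasmic filaments, had 5222 and 2227 counts and lay at 1.28-fold (1.22 to 1.35) below. *Nup98*, whose transcript codes for both NUP98 and the Y complex subunit NUP96, was 2.54-fold (2.32 to 2.79) lower, from 2571 to 554 counts. *Nup210*, for a ring around the pore within the nuclear envelope, had 3219 and 530 counts and was 3.33-fold (3.03 to 3.66) lower. *Nup62cl*, a relative of *Nup62*, had 46 and 4 counts, a wide interval of 2.30 to 24.1-fold lower, and *Nup210l* was too scarce for a call.

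**Figure D2:**
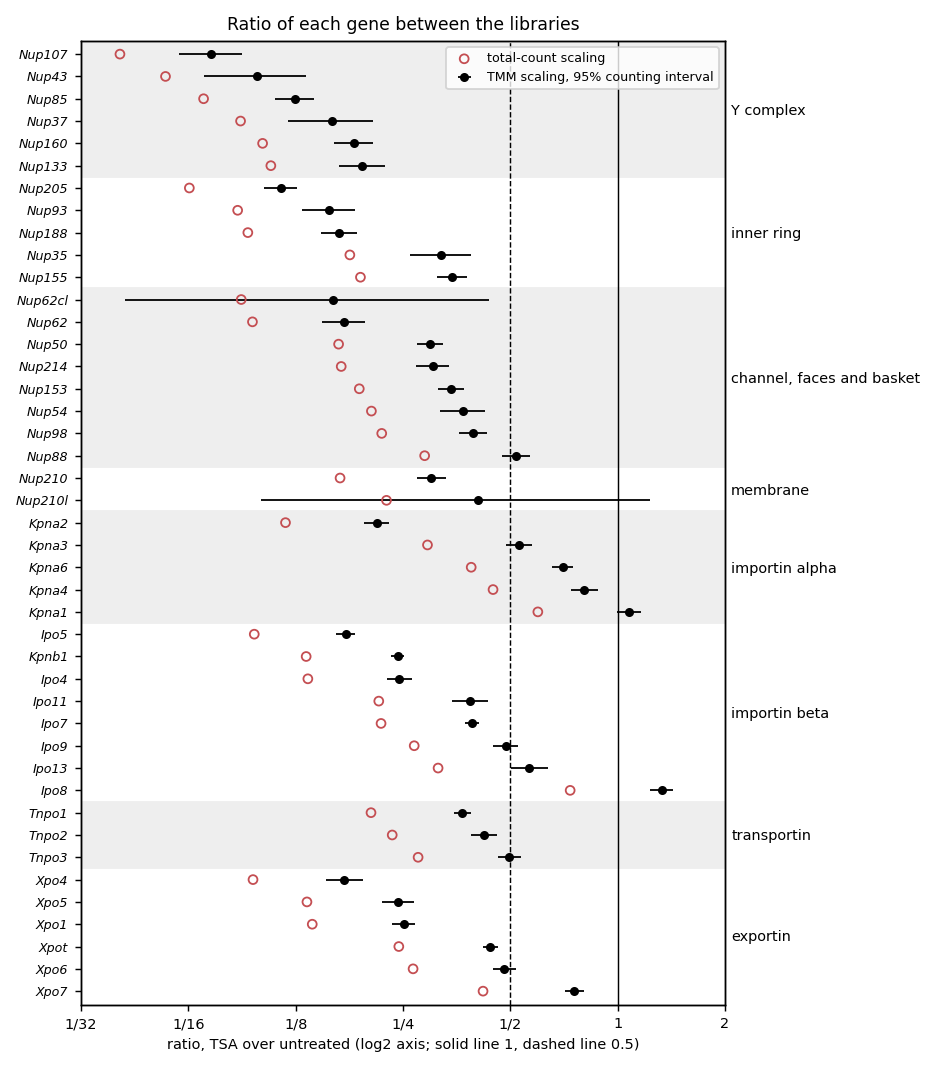
Ratio of each gene, TSA over untreated, on a log2 axis, with TMM scaling (filled circles, bars for the 95% counting interval) and with total counts (open circles). *Nup107* and *Nup43* of the Y complex lie farthest to the left, at 13.8-fold and 10.3-fold lower with TMM, and *Ipo8* lies farthest to the right at a ratio of 1.33.

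Importin alpha proteins are adaptors that bind the classical nuclear localisation signal, and their ratios ranged from 4.73-fold lower to an interval that includes 1. *Kpna2*, the importin alpha gene known to be high in dividing cells and tumours, had 5893 counts untreated and 682 with TSA and was 4.73-fold (4.37 to 5.13) lower. With TMM it was the sole called gene of the 5, against 27.4% of all genes called lower. With total counts 4 of the 5 were called lower, against 48.7% of all genes. *Kpna3* had 2590 and 750 counts and lay at 1.89-fold (1.74 to 2.06) below. *Kpna6* (2898 and 1113 counts) and *Kpna4* (1662 and 735 counts) lay at 1.43-fold (1.33 to 1.53) and 1.24-fold (1.14 to 1.35) below. *Kpna1* had 1820 and 1075 counts, a ratio of 1.08 (0.999 to 1.16) with TMM and 1.67-fold lower with total counts, not called on either scale.

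Within each library the mix of importin alpha transcripts does not depend on scaling. *Kpna2* made up 39.6% (38.9 to 40.4) of the 14863 importin alpha counts of the untreated library, the largest share. In the TSA library it made up 15.7% (14.6 to 16.8) of 4355 counts, the smallest share of the 5. *Kpna1* went from 12.2% to 24.7%, *Kpna6* from 19.5% to 25.6% and *Kpna4* from 11.2% to 16.9%. *Kpna3* held 17.4% (16.8 to 18.0) and 17.2% (16.1 to 18.4), intervals that overlap. Per length *Kpna2* was still the most abundant of the 5 in both libraries, at 167 and 19.6 FPKM, and the other 4 lay between 20.03 and 36.0 FPKM untreated and between 10.5 and 12.0 with TSA. *Cse1l*, the exportin gene whose product carries importin alpha back to the cytoplasm, had 6096 and 776 counts and was 4.30-fold (3.99 to 4.64) lower. It is named after its value was seen.

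Importin beta and its relatives carry cargo through the pore. *Kpnb1*, for importin beta itself, was the most abundant member of all in raw counts, with 19287 untreated and 2551 with TSA, and it was 4.14-fold (3.97 to 4.32) lower. *Ipo5*, for a carrier of ribosomal proteins and histones, had 11164 and 1056 counts and was 5.79-fold (5.44 to 6.18) lower, the largest difference of this group. *Ipo4*, for a carrier of histones and ribosomal proteins, had 5018 and 671 counts and was 4.10-fold (3.78 to 4.45) lower. *Ipo7* (10991 and 2358 counts), *Ipo11* (1594 and 337) and *Ipo9* (2852 and 758) were 2.55-fold, 2.59-fold and 2.06-fold lower. *Ipo13*, for a carrier that works in both directions, had 1190 and 369 counts and lay at 1.77-fold (1.57 to 1.99) below.

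*Ipo8* stood at the other end. It had 1675 counts untreated and 1219 with TSA, a ratio of 1.33 (1.23 to 1.43), the highest of the 43 genes; it was not called. With total counts it was 1.36-fold lower. IPO8 is a close relative of IPO7. Of the counts of the pair *Ipo8* held 13.2% (12.6 to 13.8) untreated and 34.1% (32.5 to 35.7) with TSA, a difference beyond counting error that scaling does not affect. By FPKM *Ipo8* was at rank 34 of the 43 genes untreated (18.1 FPKM) and at rank 6 with TSA (13.3 FPKM), while *Ipo7* was at rank 3 (133 FPKM) and rank 1 (28.8 FPKM). Relatives may share reads, and the handling of such reads is not known here.

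The transportins import RNA-binding proteins. *Tnpo1*, for the main carrier of hnRNP proteins, had 7341 and 1476 counts and was 2.73-fold (2.58 to 2.88) lower, and its relative *Tnpo2*, with 2962 and 683 counts, 2.38-fold (2.19 to 2.59) lower. *Tnpo3*, for the carrier of serine- and arginine-rich splicing factors, had 3504 and 955 counts and was 2.01-fold (1.87 to 2.16) lower, the nearest member inside the threshold. With DESeq2 size factors, upper quartiles or FPKM plus 0.1 *Tnpo3* was no longer called.

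Of 6 exportin genes 5 were called lower with TMM and 6 with total counts. Over all genes 27.4% and 48.7% were called lower on these scales. *Xpo4*, for a carrier of a translation factor, had 3240 and 304 counts and was 5.84-fold (5.19 to 6.59) lower. *Xpo5*, for the exporter of microRNA precursors, had 3182 and 423 counts and was 4.12-fold (3.72 to 4.57) lower. *Xpo1*, for the general exporter CRM1 that also takes ribosome precursors out, had 5859 and 806 counts and was 3.98-fold (3.70 to 4.29) lower. *Xpot*, for the exporter of transfer RNA, had 8773 and 2111 counts and was 2.28-fold (2.17 to 2.39) lower. *Xpo6*, for the exporter of actin, had 3415 and 901 counts and was 2.08-fold (1.93 to 2.24) lower. *Xpo7* had 3524 and 1461 counts and lay at 1.32-fold (1.24 to 1.41) below, not called with TMM and called lower with total counts.

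The mix of exportin transcripts shifted between the libraries. *Xpo1* held 20.9% (20.5 to 21.4) of 27993 exportin counts untreated and 13.4% (12.6 to 14.3) of 6006 with TSA. *Xpo7* went the other way, from 12.6% (12.2 to 13.0) to 24.3% (23.2 to 25.4). *Xpot* held the largest share in both, 31.3% and 35.1%. *Xpo7* is known for its expression in maturing red blood cells, and the erythroid markers were higher in the same library, at 0.00932% and 0.0261% of counts; their part in the value of *Xpo7* was not tested.

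**Figure D3:**
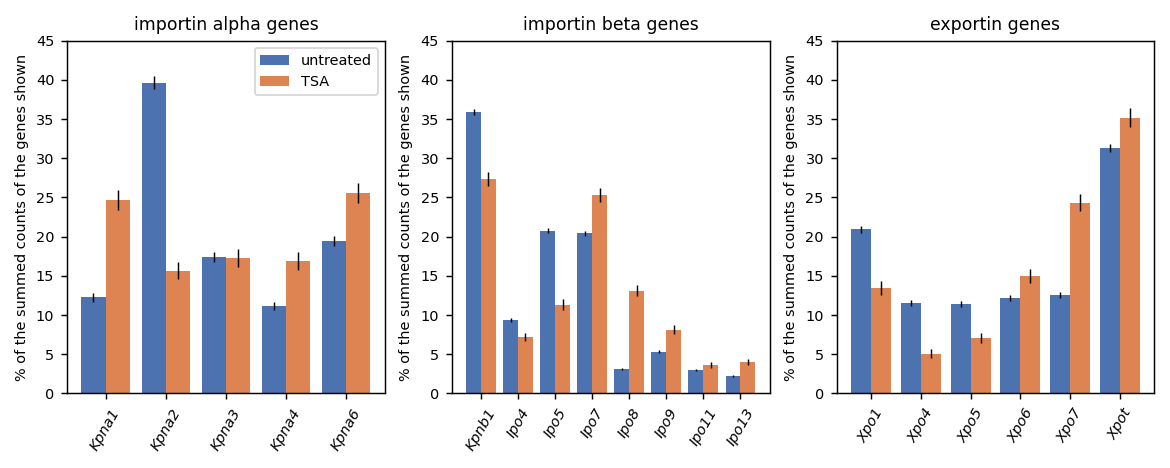
Share of each gene in the summed counts of its family within a library, in percent, for importin alpha, importin beta and exportin genes, with 95% Clopper-Pearson bars for counting error. *Kpna2* drops from 39.6% to 15.7%, while *Ipo8* goes from 3.12% to 13.1% and *Xpo7* from 12.6% to 24.3%.

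Per length the members spanned a wide range of levels. In the untreated library the highest were *Kpnb1* (189 FPKM), *Kpna2* (167), *Ipo7* (133), *Nup85* (99.2) and *Ipo5* (87.8). In the TSA library the highest were *Ipo7* (28.8), *Kpnb1* (25.3), *Xpot* (19.9), *Kpna2* (19.6) and *Nup88* (15.1). The median over the 43 genes was 28.9 FPKM untreated and 6.06 with TSA. *Nup107* went from rank 14 to rank 40 and *Nup205* from rank 12 to rank 32, while *Kpna1* went from rank 32 to rank 8. The order of the levels was kept in part: Spearman's rho between the libraries was 0.58 over the 43 genes, which share the same 2 libraries and gene lengths.

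The pathway was followed further through 42 genes of pore proteins, Ran regulators, adaptors and mRNA export factors that the name rule does not reach. Of these 20 were called lower and 1 higher with TMM, and 37 lower and none higher with total counts; their median was 1.88-fold lower. Over all genes 27.4% were lower with TMM and 48.7% with total counts. Of 7 genes of the Ran cycle 6 were called lower with TMM and 7 with total counts, with a TMM median of 5.61-fold. *Ran* itself had 13710 counts untreated and 1338 with TSA and was 5.61-fold (5.31 to 5.94) lower. *Rcc1*, for the chromatin-bound factor that loads Ran with GTP, had 4001 and 135 counts and was 16.2-fold (13.7 to 19.4) lower. *Ranbp1* (4338 and 379 counts) and *Rangrf* (489 and 37 counts), for proteins that bind Ran, were 6.27-fold (5.65 to 6.98) and 7.24-fold (5.18 to 10.4) lower. *Rangap1*, for the protein that makes Ran hydrolyse GTP at the cytoplasmic side, had 6162 and 1836 counts and lay at 1.84-fold (1.75 to 1.94) below, not called. The intervals of *Rcc1* and *Rangap1*, which code for the opposing regulators of Ran, did not overlap.

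Of 13 further pore genes 5 were called lower with TMM and 11 with total counts, none was higher, and the TMM median was 1.84-fold lower. *Tmem33* and *Sec13*, for proteins that also work at the endoplasmic reticulum, had ratios of 1.44 (1.35 to 1.53) and 1.12 with TMM, and both lay under 1 with total counts. Of 13 mRNA export genes 4 were called lower and 1 higher with TMM, a share of lower genes near the 27.4% of all genes, and 11 lower and none higher with total counts. *Alyref*, for an adaptor that hands mRNA to the exporter, had 2055 and 144 counts and was 7.82-fold (6.60 to 9.32) lower. *Nxt2*, for a cofactor of the mRNA exporter NXF1, had 236 and 371 counts, a ratio of 2.87 (2.43 to 3.39), the sole gene called higher; with total counts it was not called. Among 7 receptors and adaptors with other names 4 were called lower with TMM and 6 with total counts. *Ranbp17*, for an importin-like protein, had 183 counts untreated and 0 with TSA. With the floor of 3 counts in place of 0 it was 33.4-fold lower, and its counting interval ran from 26.9-fold upward. *Ddx19b* and *Ranbp6* had ratios of 1.25 and 1.01 and were not called, and both lay under 1 with total counts. Of the 2 SUMO protease genes of the pore 1 was called lower with TMM and 2 with total counts.

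**Figure D4:**
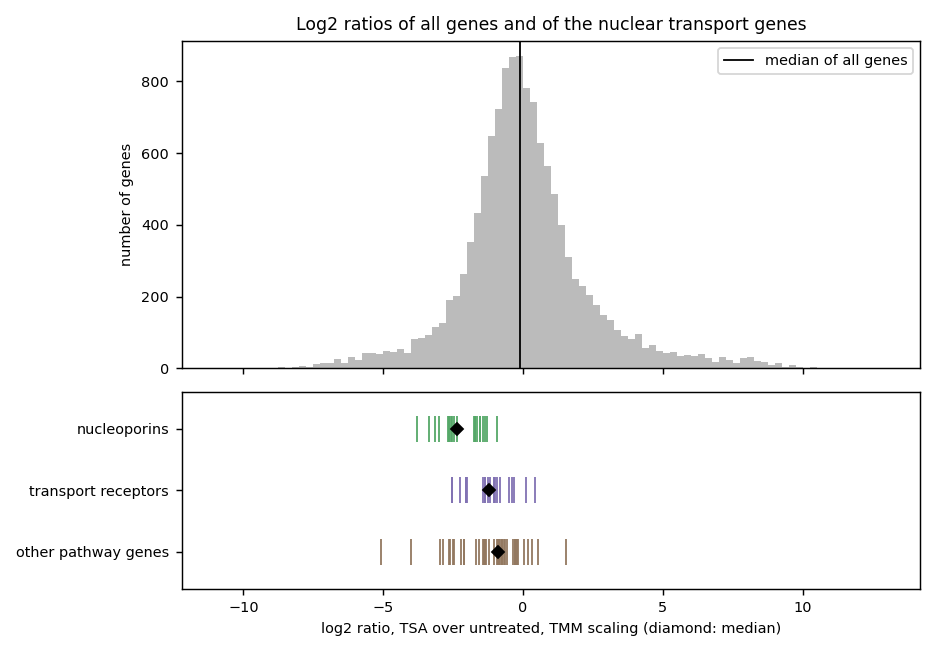
Distribution of log2 ratios over all 13027 genes (upper panel, bins of 0.25) and the single ratios of nucleoporins, transport receptors and other pathway genes (lower panel, diamonds for medians). The medians are -2.38, -1.22 and -0.91, beside -0.11 for all genes.

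Promoters are shown because the livers of both groups were injected with c-Myc. The part of promoter motifs in the differences between the libraries was not tested. Promoter windows of 250 bases before to 50 after the start site were matched for 34 of the 43 members in RefSeq (GRCm38.p6). Some genes had several windows, and a gene counted as holding a motif if any of its windows did. The E-box CACGTG, which reads the same on both strands, was found in 7 of these 34 genes (20.6%) and in 11.5% of the 10035 genes with enough counts and a window. The 7 were *Ipo4*, *Ipo7*, *Nup54*, *Nup93*, *Nup188*, *Tnpo2* and *Xpot*. All 7 were called lower, as were 23 of the 27 without it, against 27.4% of all genes. The median log2 ratios were -1.44 and -1.74. Calls among other genes with the E-box were not counted. The other motifs, searched on both strands and chosen after the E-box matches were seen, were CCGGAAG, as bound by ETS factors, in 17.6% of members and 19.1% of genes, and CCAAT, as bound by NF-Y, in 55.9% and 42.9%. A match is a description of the letters in these windows and does not show binding.

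The 250 bases before the start site are printed for 4 members, with the E-box in capitals: *Nup107*, with the largest difference, *Nup188*, with E-boxes at 66 and 24 bases before the start, and the relatives *Ipo7* and *Ipo8*, whose ratios lay on opposite sides of 1 with TMM. All are GRCm38.p6, 5′ to 3′ on the strand of the gene.
Nup107, chr10:117792706-117792955, minus strand: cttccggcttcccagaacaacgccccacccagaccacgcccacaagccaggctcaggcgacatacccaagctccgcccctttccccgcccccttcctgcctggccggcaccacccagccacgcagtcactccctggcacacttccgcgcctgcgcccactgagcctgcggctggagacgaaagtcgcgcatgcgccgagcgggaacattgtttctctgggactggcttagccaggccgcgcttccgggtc
Nup188, chr2:30286166-30286415, plus strand: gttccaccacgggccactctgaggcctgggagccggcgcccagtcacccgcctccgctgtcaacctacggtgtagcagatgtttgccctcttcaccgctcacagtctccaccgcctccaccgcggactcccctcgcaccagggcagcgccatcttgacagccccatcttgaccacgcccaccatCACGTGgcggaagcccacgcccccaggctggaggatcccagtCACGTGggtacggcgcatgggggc
Ipo7, chr7:110018065-110018314, plus strand: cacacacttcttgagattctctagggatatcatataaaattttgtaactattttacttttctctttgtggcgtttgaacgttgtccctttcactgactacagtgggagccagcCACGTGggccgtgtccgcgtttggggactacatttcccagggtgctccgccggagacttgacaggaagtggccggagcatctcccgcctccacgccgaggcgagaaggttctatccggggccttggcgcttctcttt
Ipo8, chr6:148831468-148831717, minus strand: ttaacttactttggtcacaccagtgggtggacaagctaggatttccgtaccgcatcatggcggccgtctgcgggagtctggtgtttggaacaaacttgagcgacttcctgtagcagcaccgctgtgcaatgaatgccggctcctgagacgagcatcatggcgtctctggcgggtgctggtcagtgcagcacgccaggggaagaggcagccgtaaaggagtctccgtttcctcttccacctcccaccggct

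*Ipo7* held 1 E-box and *Ipo8* and *Nup107* none in the bases shown.

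Some counts carry a limit from the gene models. In GENCODE M21 all 43 members were found by symbol, and 14 share exon bases with another gene, 9 of them with a protein-coding one. Besides *Nup62* and *Nup88*, these included *Tnpo3*, which overlaps *Irf5* (142 and 290 counts), and *Xpo7*, which overlaps *Npm2* (14 and 3 counts). *Nup35* overlaps *Dusp19* on the same strand, and *Dusp19* had 57 and 51 counts. *Nup188*, *Ipo4* and *Xpo4* overlap same-strand protein-coding genes that have no entry among the counted symbols. Since the labels name no genome build or annotation, gene coordinates of the counted models are not printed.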

How the data were processed

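The authors deposited whole-number read counts per gene symbol, unscaled per the file headers and values, and FPKM values. The deposited FPKM are the counts divided by gene model length and library total: for each of the 14271 genes counted in both libraries, both implied the same whole-number length (tolerance 0.1 base). Trimmomatic, HISAT2, Bowtie2 and DESeq stand in the submitters' processing notes without role or version. For the build, annotation, counter and strand the sources used here give nothing.

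Libraries of 17281523 (untreated) and 17088227 (TSA) counts were scaled by TMM in edgeR 4.0.16 (R 4.3.3), with factors of 1.34 and 0.744. With 1 library per group there is no test across conditions and no p-value. Each ratio carries an exact conditional binomial interval (Clopper-Pearson, 95%) that covers counting error alone. PCR copies of a molecule cannot be told from separate molecules without identifiers, so the intervals may be too narrow even for that. A gene needed 20 summed counts, and 13027 of 21878 symbols had them. Where a library had 0 counts, 3 counts were put in its place as a floor. Total counts, DESeq2 1.42.0 size factors, upper quartiles, FPKM with 0.1 added, other minimums and thresholds and a thinned library were the alternatives. The calling was tested on simulated data without variation between animals, which says nothing of that variation here. Scripts ran in Python 3.11.15 (scipy 1.17.1, pandas 2.3.3, numpy 2.4.6; figures with matplotlib 3.10.9).

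The members, the pathway list and the marker lists were chosen with earlier results of these data known. All members with enough counts may be named. Of the pathway list, the 5 genes with most counts, the 5 with the largest differences among those with at least 50 summed counts, and any that went against the rest are named, and others were named after their values were seen. Promoter sequences are from RefSeq for GRCm38.p6. No protein sequence was used here.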

Additional observations from a re-analysis of the deposited data

How the results depend on the processing

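No paired analysis was possible because each group holds 1 library. For the same reason no library could be left out, so the differences have no replicate check. The 34 members called lower became 41 with total counts, 33 with DESeq2 size factors, 33 with upper quartiles, 33 with FPKM plus 0.1, 37 at 1.5-fold, 17 at 4-fold and 31 where the whole interval had to pass 2-fold. No member was called higher under any of these. The share of all genes called was worked out at 2-fold alone, with TMM and with total counts. Counts under the other settings, here and below, therefore have no share of all genes beside them. The median log2 ratio of the members was -1.64 with TMM and -2.50 with total counts. Relative to all genes it was -1.53, and it ranged from -1.69 without a count minimum to -1.48 at 100 summed counts. Single ratios stayed within their counting intervals for all 43 members with DESeq2 size factors, upper quartiles, FPKM and the thinned library, whereas with total counts 41 lay outside them and *Kpna1* and *Ipo8* changed direction. Of the 42 other pathway genes, 1 was called higher and 20 lower. With total counts 0 were called higher and 37 lower, and at 4-fold 0 higher and 11 lower. The share of each importin alpha and exportin gene in the summed FPKM, which corrects for gene length, kept the direction of its difference between the libraries except for *Kpna3*, whose share of FPKM was 12.9% untreated and 16.2% with TSA. On that scale *Kpna2* took 60.2% and 30.2%, and *Xpo7* 5.25% and 11.1%. Depth limited *Nup210l* and *Nup62cl*, each with 4 counts in the TSA library.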
